A study of Mus musculus with 6 samples.

Results

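Mammalian mitochondria keep a ribosome of their own, the mitoribosome, which translates the few mRNAs of the mitochondrial genome into subunits of the respiratory chain and the ATP synthase. Its rRNAs are transcribed inside the organelle, whereas every one of its proteins is encoded in the nucleus, made in the cytosol and imported. Some of these proteins descend from bacterial ribosomal proteins, and others have no bacterial counterpart. The genes described here are the protein-coding rows whose symbol begins with Mrpl or Mrps and a number. There were 77 of them among the 54532 genes listed, on 17 chromosomes, with 48 Mrpl symbols and 29 Mrps symbols. In structures of the mammalian mitoribosome, 50 of the encoded proteins sit in the large subunit and 26 in the small subunit, since Mrps18a and Mrps30 belong to the large one. Mrps36, the remaining gene, is now known as a subunit of the oxoglutarate dehydrogenase complex. Of the 76 ribosomal proteins, 45 were classed as having a bacterial counterpart and 31 as specific to mitochondria. Mrps18a and Mrps18b were put in the latter class, although they descend from a bacterial protein.

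RNA was sequenced from whole livers of 3 mice labelled hepatocyte Notch1 KO and 3 control mice labelled Notch1fl/fl, all untreated, in a study of Notch1 in the liver's making of thrombopoietin, the hormone that drives platelet production. The label of the KO mice does not name their alleles. The sources used here give no Cre driver, sex, age or strain. The libraries were made from poly-T-selected RNA, so RNA without a poly(A) tail is under-represented. The control columns are headed NC and were taken as the controls because the KO columns carry their own name and no other group is labelled. Nothing in the labels ties a replicate number to a litter or day, so the p-values reflect spread between 6 livers, which may be technical.

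Levels are deposited FPKM, that is, fragments per kilobase of a gene's length, with a scaling between libraries. Whole reads in genes, recovered from the FPKM values, summed to 15612924 to 17511961 in KO livers and 16053926 to 16809352 in Control livers. Notch1 itself stood at 0.301, 0.540 and 0.292 FPKM in KO livers, against 0.618, 0.965 and 0.854 FPKM in Control livers. The groups did not overlap, but the difference missed the threshold (log2 fold change -0.40 by limma, adjusted p = 0.257). That fold change is of FPKM + 1, which understates changes at such low levels, and the ratio of mean FPKM was 0.465. The hepatocyte markers Alb, Apoa1, Ttr, Serpina1c, Cps1 and Hnf4a summed to 31269 to 41970 FPKM in KO livers and 43974 to 51754 FPKM in Control livers, without overlap, and their height fits the tissue label. All 6 of these markers had the lower mean in KO livers, and 1 of them did not overlap between the groups. The 3 mesothelial markers Msln, Upk3b and Wt1 summed to 63.8 to 108 FPKM in KO livers and 3.55 to 36.9 FPKM in Control livers, and the 4 bile duct markers to 22.4 to 30.9 FPKM in KO livers and 12.2 to 15.1 FPKM in Control livers. The 3 red cell precursor markers summed to 165 to 303 FPKM in KO livers and 308 to 364 FPKM in Control livers. Sums for Kupffer cells, endothelium, stellate cells and lymphocytes overlapped between the groups. No marker passed the adjusted threshold, none was at 0 in all 6 libraries, and the part of cell composition in the differences below was not tested. In bulk liver, fewer cells of a type and less RNA per cell cannot be told apart.

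Nearly all of these genes were well expressed in liver, and their deposited levels ranged over 39.6-fold. 76 of the 77 averaged 0.5 FPKM or more and were tested, with 112 to 2256 reads per gene and library. The median member stood at 13.0 FPKM. Mrpl34, the counterpart of bacterial L34, was highest, with 87.4, 105 and 77.6 FPKM in KO livers and 84.9, 76.5 and 73.2 FPKM in Control livers. Mrps21, the counterpart of bacterial S21, followed with 78.4, 84.1 and 78.6 FPKM in KO livers and 81.3, 67.8 and 70.7 FPKM in Control livers. These top genes overlapped each other in both groups, so their order is within the spread. Mrpl14, the counterpart of bacterial L14, averaged 68.8 ± 15.0 FPKM in KO livers and 60.7 ± 6.31 FPKM in Control livers (SD, n = 3 each). Mrps24, the counterpart of bacterial S3 despite its number, averaged 62.9 ± 9.38 FPKM in KO livers and 55.1 ± 3.49 FPKM in Control livers. Mrpl52, a mitochondria-specific protein of the large subunit, averaged 58.8 ± 5.79 FPKM in KO livers and 52.8 ± 5.15 FPKM in Control livers. Each of these neighbours in the order also lay within the spread of the next.

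At the low end stood Mrpl3, Mrps30, Mrpl33, Mrpl19 and Mrps25. Mrps25, a mitochondria-specific protein of the small subunit, had 1.92, 2.60 and 2.5 FPKM in KO livers against 2.28, 1.88 and 1.55 FPKM in Control livers. Mrpl19, the counterpart of bacterial L19, averaged 2.35 ± 0.306 FPKM in KO livers and 2.44 ± 0.163 FPKM in Control livers. Mrpl33, the counterpart of bacterial L33, averaged 2.58 ± 0.145 FPKM in KO livers and 2.5 ± 0.398 FPKM in Control livers. These 3 genes could not be ordered beyond their spread. Mrps30, a mitochondria-specific protein of the large subunit, averaged 2.56 ± 0.465 FPKM in KO livers and 2.91 ± 0.405 FPKM in Control livers. Mrpl3, whose bacterial counterpart lies by the peptidyl transferase centre, averaged 3.21 ± 0.494 FPKM in KO livers and 3.26 ± 0.474 FPKM in Control livers. Subunits that occur in a single copy each, such as Mrpl34 and Mrps25, differed widely in deposited mRNA level. Of the exon bases of Mrps25, 69.8% are also exon of Nr2c2 on the opposite strand. For Mrpl19, 36% are exon of Gcfc2, likewise opposite. Whether counting used strand is not known here, and the part of shared exons in these levels was not tested.

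The order of the levels followed the length the authors divided by. Deposited gene lengths of the tested members ran from 607 to 8631 bases, with a median of 2394, and Spearman's rho between mean FPKM and gene length was -0.85 across the 76 genes, which share libraries and are not independent. Dividing the same reads by the length of 1 principal transcript per gene in the GENCODE M21 annotation gave a rho of -0.57 with gene length and 0.76 with the deposited level. On that scale the levels ran from 2.30 to 148. Mrpl33 had a deposited length of 7326 bases and a principal transcript of 478 bases, and its level was 39.0 per kilobase of that transcript in place of 2.54 FPKM. Mrpl52 headed the order by principal transcript with 148, followed by Mrps21 with 116. Levels of different members should therefore be compared only with the length in view, whereas the ratio of KO over Control FPKM within a gene does not depend on it.

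**Figure D1:**
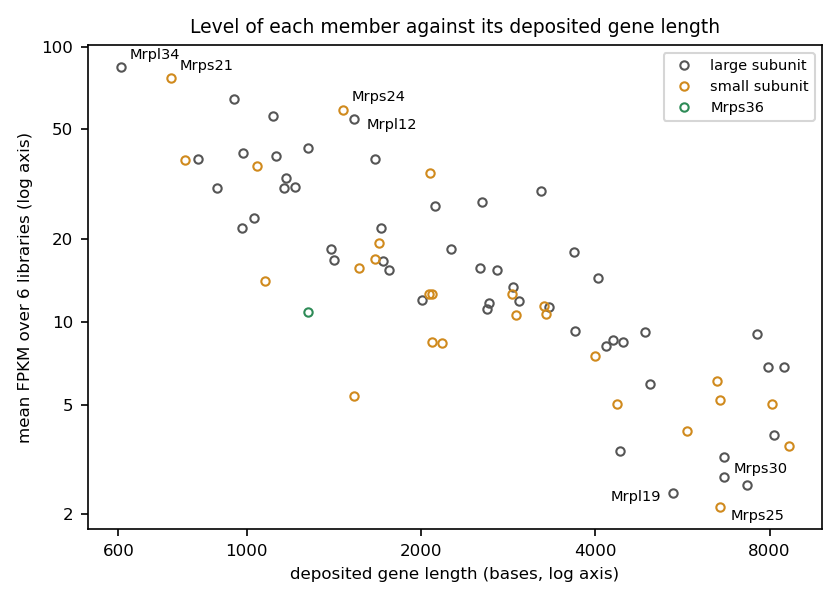
Mean FPKM over the 6 libraries of each of the 76 tested mitochondrial ribosomal protein genes (vertical, log axis) against the deposited gene length in bases (horizontal, log axis), with 1 circle per gene coloured by subunit. Short genes such as Mrpl34 and Mrps21 lie at the top left and long ones such as Mrps25 and Mrpl19 at the bottom right (Spearman's rho -0.85).

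Mrpl53, a mitochondria-specific protein of the large subunit, was listed at 0 FPKM in all 6 libraries and was the only member not tested. In GENCODE M21 its gene spans chr6:83109040-83109939, and 88.0% of its exon bases are also exon of Gm42688 on the same strand, which stood at 0 to 0.0412 FPKM in KO livers and 0.0367 to 0.0995 FPKM in Control livers. The 0 is what the table lists and does not show absence of the mRNA.

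Deletion of Notch1 in hepatocytes was compared with the floxed controls across the whole family. 0 of the 76 tested genes passed an adjusted p of 0.05, where 3 of 12022 genes (0.025%) passed over the whole table by limma. With voom weights on the recovered reads, 0 members were called as well. The lowest adjusted p among members was 0.231. Unadjusted p under 0.05 was reached by 5 members, 4 with the higher mean in KO livers (Mrps12, Mrpl46, Mrps34 and Mrpl51) and 1 with the lower (Mrps18c). That was 6.58% of members, against a background of 13.9% of all genes tested, 6.83% higher and 7.06% lower. The 3 KO values lay all above or all below the 3 Control values for 8 members, 7 higher in KO livers and 1 lower, or 10.5% of members. The background there was 19.8% of all genes tested, 9.2% higher and 10.6% lower. Neither count exceeded its background.

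The fold changes of the family were small and narrow. The KO mean was higher for 46 members and lower for 30. Scaling to total reads instead made it higher for 72 of the 76, with a median log2 fold change of 0.18 where the median of all genes moved to 0.10. On the deposited scale the median log2 fold change was 0.04 beside -0.01 over all genes tested, and the middle 50% of members lay between -0.03 and 0.14. The ratio of mean FPKM in KO livers over Control livers ran from 0.776 (Mrps18c) to 1.32 (Mrpl46). The 95% interval of the fold change stayed inside 1.5-fold in either direction for 71 of 76 members (93.4%), beside 70.7% of all genes tested. The exceptions were Mrps12, Mrps18c, Mrpl46, Mrpl57 and Mrpl12, and the outermost bounds of any member were 0.663 and 1.67. The median SD within a group on the log2 scale was 0.13 for members and 0.16 for all genes tested. Narrow intervals were not particular to the family. The share inside 1.5-fold was 100% for mitoribosome assembly factors, 92.3% for mitochondrial translation factors and 88.9% for mitochondrial RNA processing, but 58.4% for cytoplasmic ribosomal proteins. Members also had a median level of 13.0 FPKM beside 3.59 FPKM for all genes tested, and the part of level was not tested. On the deposited scale, the intervals, taken gene by gene, thus bound most members to a change of less than 1.5-fold in log2(FPKM + 1). They do not show that any member was equal in the 2 groups. Intervals after scaling to total reads, which raised the median, are not given here.

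**Figure D2:**
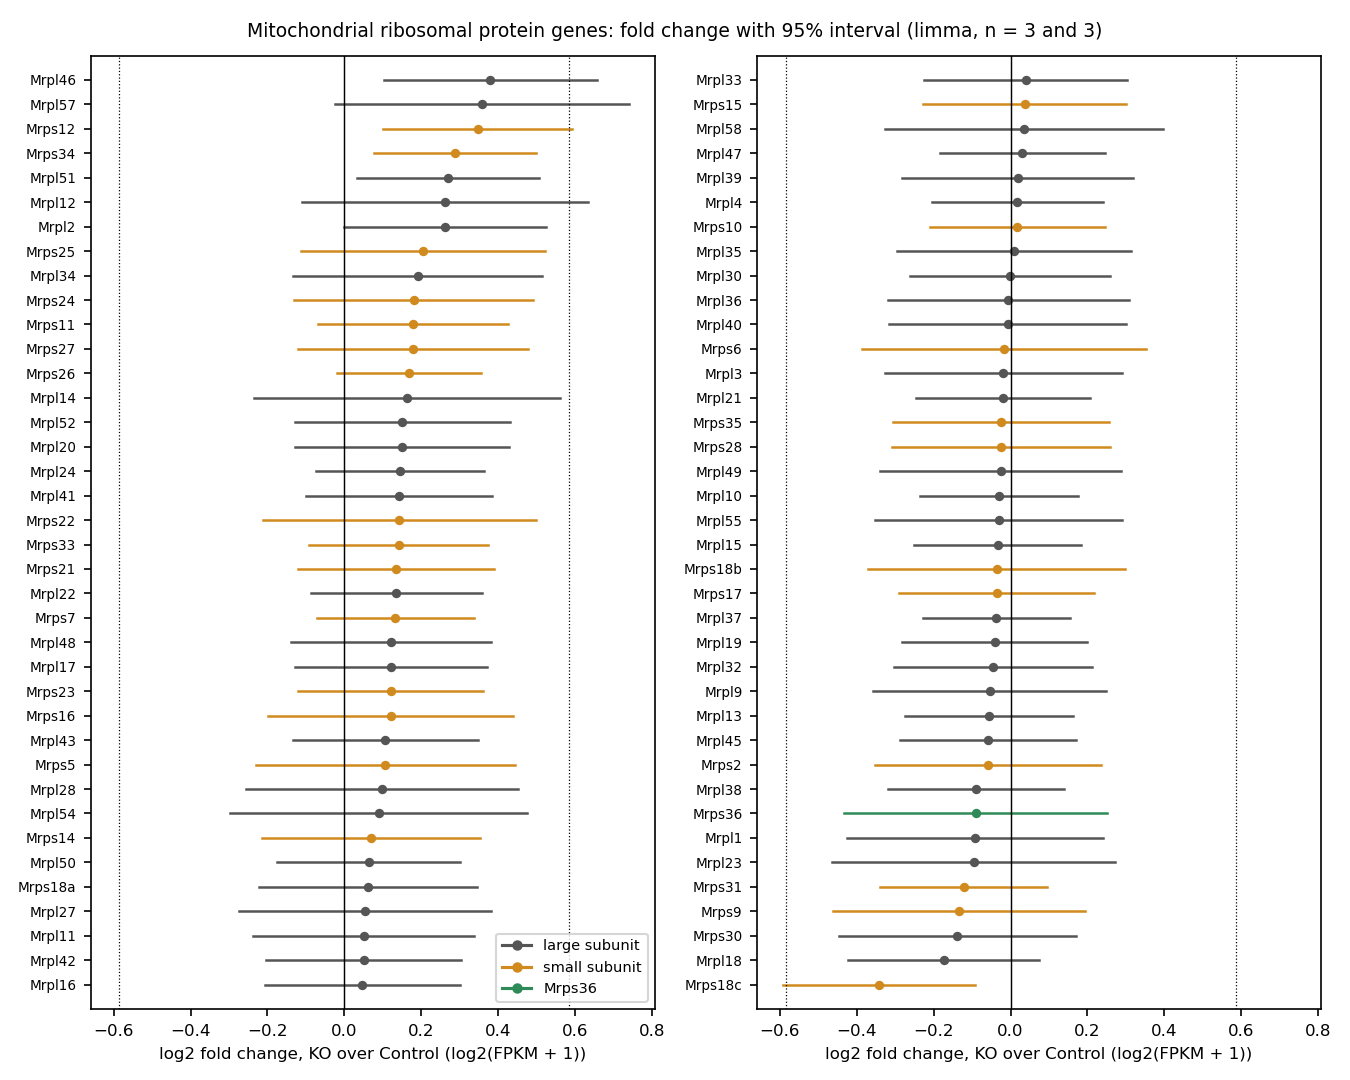
Log2 fold change of FPKM + 1, KO over Control, for each of the 76 tested members (points, sorted from the highest at top left to the lowest at bottom right) with its 95% limma interval (lines) and subunit (colour). The dotted lines stand at 1.5-fold, which 71 of the 76 intervals do not cross, and the solid line at 0 is crossed by all but 5.

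Among proteins of the small subunit, 17 of 26 genes had the higher mean in KO livers, with a median log2 fold change of 0.11, 3 at unadjusted p under 0.05 (11.5%, beside 13.9% of all genes tested) and 5 without overlap between groups (19.2%, beside 19.8%). Mrps12, at chr7:28739641-28741820 on the minus strand (GRCm38), encodes the counterpart of bacterial S12, a protein of the decoding centre. Its level was 41.2, 42.1 and 40.3 FPKM in KO livers and 35.3, 32.8 and 28.8 FPKM in Control livers. The KO values were tight and all lay above the Control values (log2 fold change 0.35, SE 0.10, adjusted p = 0.231). Mrps34, a mitochondria-specific subunit in which human variants cause Leigh syndrome, had 15.0, 13.2 and 13.9 FPKM in KO livers and 10.8, 11.8 and 11.3 FPKM in Control livers. Its groups did not overlap either (log2 fold change 0.29, SE 0.09, adjusted p = 0.244), but 77.8% of its exon bases are also exon of other genes. Mapk8ip3, on the opposite strand, shares 63.4% of them, and Nme3, on the same strand and listed at 0 FPKM in all 6 libraries, shares 37.0%. Whether counting used strand is not given in the sources used here, and without strand reads from Mrps34 and Mapk8ip3 cannot be told apart. Reads in the bases shared with Nme3 are uncertain with or without strand. Mrps26, a mitochondria-specific subunit, had 5.32, 5.42 and 5.45 FPKM in KO livers against 4.54, 4.76 and 4.79 FPKM in Control livers, a small separation between 2 tight groups (log2 fold change 0.17, SE 0.08, adjusted p = 0.400). Mrps11, the counterpart of bacterial S11, had 8.87, 9.90 and 8.21 FPKM in KO livers and 7.95, 8.39 and 7.12 FPKM in Control livers, which overlapped (adjusted p = 0.496).

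3 members are paralogs that descend from a single bacterial protein, S18, and occupy different places in the mitoribosome: Mrps18b and Mrps18c in the small subunit and Mrps18a in the large one. Mrps18c, at chr5:100798627-100804471 on the plus strand, had 13.4, 12.7 and 11 FPKM in KO livers against 16.4, 16.7 and 14.6 FPKM in Control livers. It was the only member whose KO values all lay below the Control values (log2 fold change -0.34, SE 0.11, adjusted p = 0.243), and 23.2% of its exon bases are shared with Gm43511 on the same strand. Mrps18a had 9.02, 9.12 and 10.1 FPKM in KO livers and 9.77, 7.55 and 9.78 FPKM in Control livers. Mrps18b had 8.58, 7.71 and 8.65 FPKM in KO livers and 10.3, 8.70 and 6.91 FPKM in Control livers. Both of these overlapped between groups, with log2 fold changes of 0.06 (SE 0.12, adjusted p = 0.862) and -0.04 (SE 0.14, adjusted p = 0.942). Whether the 3 paralogs differed in their response was not tested.

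The other small-subunit genes with the lowest p among those lower in KO livers were further from the threshold. Mrps31, a mitochondria-specific subunit, averaged 10.2 ± 0.512 FPKM in KO livers and 11.2 ± 0.781 FPKM in Control livers (SD, n = 3 each; adjusted p = 0.604). Mrps9, the counterpart of bacterial S9, averaged 3.76 ± 0.157 FPKM in KO livers and 4.28 ± 0.984 FPKM in Control livers (adjusted p = 0.720), where 1 Control liver stood at 5.41 FPKM and the others at 3.84 and 3.59 FPKM. Mrps36, counted here by its symbol and not as a ribosomal subunit, averaged 10.5 ± 1.97 FPKM in KO livers and 11.2 ± 1.08 FPKM in Control livers (adjusted p = 0.830).

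Among proteins of the large subunit, 29 of 49 tested genes had the higher mean in KO livers, with a median log2 fold change of 0.04, 2 at unadjusted p under 0.05 (4.08%) and 3 without overlap (6.12%), both below the same backgrounds. Mrpl46, a mitochondria-specific protein encoded at chr7:78775236-78783531 on the minus strand, had 18.4, 20.3 and 18.6 FPKM in KO livers against 13.8, 16.9 and 12.9 FPKM in Control livers. It showed the largest fold change of the family, with no overlap between groups (log2 fold change 0.38, SE 0.12, adjusted p = 0.243). Mrpl51, likewise mitochondria-specific, had 14.3, 17.6 and 15.6 FPKM in KO livers and 13.1, 13.0 and 12.6 FPKM in Control livers. All KO values were above the Control values, but the KO livers differed more among themselves than the Control livers did (log2 fold change 0.27, SE 0.10, adjusted p = 0.311). Mrpl2, whose bacterial counterpart L2 lies beside the peptidyl transferase centre, had 33.5, 40.2 and 36.0 FPKM in KO livers against 33.3, 28.2 and 29.5 FPKM in Control livers, a separation with a narrow gap at the nearest pair (log2 fold change 0.26, SE 0.11, adjusted p = 0.360).

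Mrpl12 encodes the stalk protein of the large subunit, which recruits translation factors. Its level was 58.0, 73.4 and 48.9 FPKM in KO livers and 47.6, 53.4 and 47.1 FPKM in Control livers. Library KO 2 was far above the rest, and the groups overlapped (log2 fold change 0.26, SE 0.16, adjusted p = 0.513). Mrpl57, a mitochondria-specific protein, had 12.3, 15.7 and 12.5 FPKM in KO livers and 10.4, 12.4 and 8.24 FPKM in Control livers, again with overlap and with KO 2 the highest (log2 fold change 0.36, SE 0.16, adjusted p = 0.389). Mrpl24, the counterpart of bacterial L24, averaged 19.4 ± 1.32 FPKM in KO livers and 17.4 ± 0.789 FPKM in Control livers (adjusted p = 0.540). On the lower side Mrpl18, the counterpart of bacterial L18, had 15.9, 18 and 17.9 FPKM in KO livers and 21.2, 20.1 and 17.6 FPKM in Control livers, and the groups overlapped (log2 fold change -0.17, SE 0.10, adjusted p = 0.514). Mrps30, Mrpl38, Mrpl1, Mrpl23 and Mrpl13 had lower means in KO livers by log2 fold changes of -0.06 to -0.14, with adjusted p of 0.689 to 0.838. Mrpl1 forms the other stalk of the large subunit, and Mrpl23 lies by the exit of the nascent chain. None of the 5 separated the groups.

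**Figure D3:**
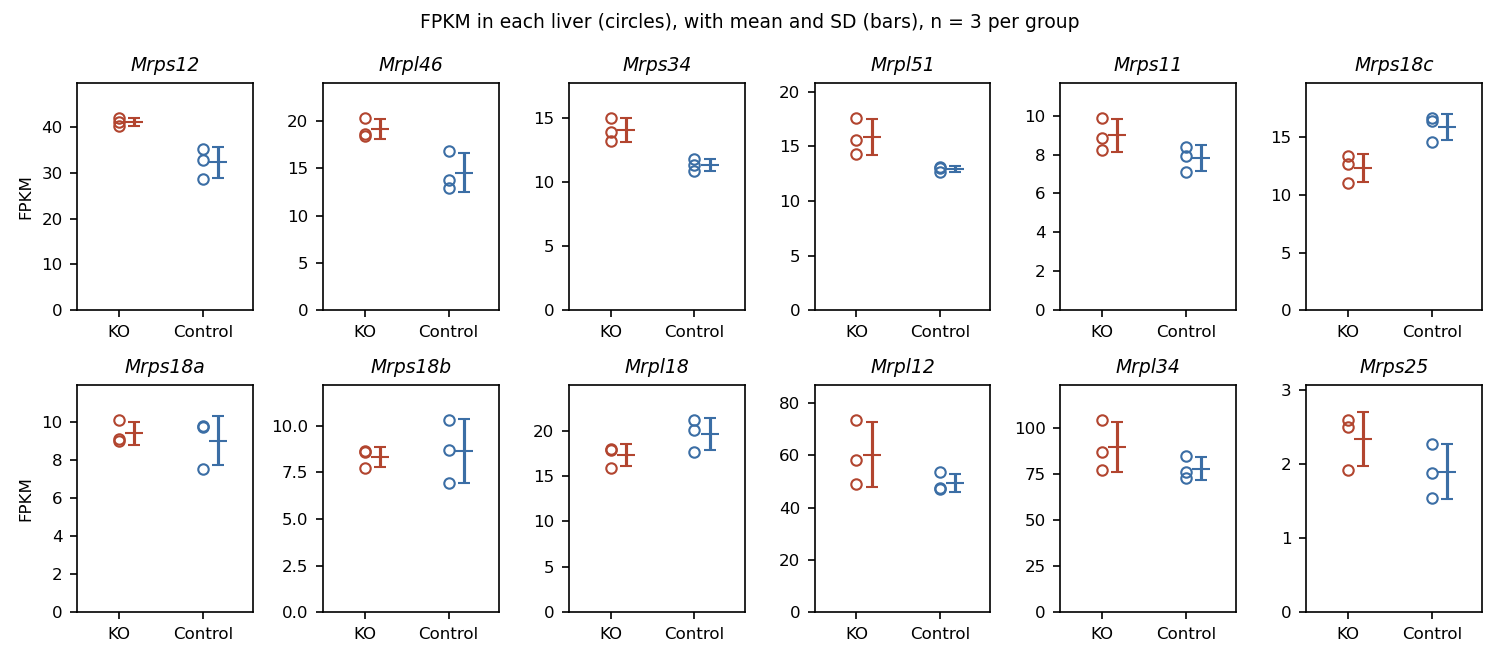
FPKM in each KO and Control liver (circles) with the group mean and SD (bars, n = 3 each) for 12 members, each on its own axis starting at 0. The groups do not overlap for Mrps12, Mrpl46, Mrps34, Mrpl51 and Mrps18c, and they do for Mrps18a, Mrps18b, Mrps11, Mrpl18, Mrpl12, Mrpl34 and Mrps25.

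The family was also divided by these classes, which are not strictly descent, since Mrps18a and Mrps18b were classed as mitochondria-specific. Members with a bacterial counterpart had a median log2 fold change of 0.03 (26 of 45 higher), and mitochondria-specific members 0.08 (20 of 30 higher). 32 members share at least some exon bases with another gene, and 18 share 10% or more. Among the 59 that share less than 10%, the median was 0.04, 2 had an unadjusted p under 0.05 (3.39%) and 4 did not overlap between groups (6.78%).

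The small positive median depended on single libraries. Relative to the Control mean, the median member stood at 0.03, 0.14 and -0.01 log2 units in KO livers 1 to 3 and at 0.04, 0.06 and -0.10 in Control livers 1 to 3, so the groups overlapped. KO 2 was the highest library for 39 of the 76 members, and Control 3 the lowest for 39. The family median was 0.01 without KO 2 and -0.02 without Control 3. Summed over members, FPKM was 1509, 1690 and 1469 in KO livers and 1500, 1503 and 1353 in Control livers. Members took 0.277%, 0.361% and 0.302% of reads in KO livers and 0.271%, 0.277% and 0.258% in Control livers. In KO 2 the shorter 38 members had a median of 0.18 and the longer 38 a median of 0.09, where all tested genes below and above the same length stood at 0.06 and -0.04. The part of gene length in the members' values was not tested.

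Proteins of the cytoplasmic ribosome, which translates all nuclear-encoded mRNA, also had their highest median in KO 2. The median over their 77 tested genes (of 81) was 0.02, 0.41 and 0.02 in KO livers and 0.08, 0.04 and -0.13 in Control livers. Their median log2 fold change was 0.15, and it was 0.02 without KO 2. Of the 77 genes, 70 were higher in mean and 2 had unadjusted p under 0.05 (2.6%, beside 13.9% of all genes tested). 0 of them passed the adjusted threshold. KO 2 also had the largest size factor, 1.22, where the other 5 libraries had 0.911 to 1.04.

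RNA encoded by the mitochondrial genome, which the mitoribosome contains and reads, was mostly lower in KO livers. The mitochondrial genome took 5.53%, 3.64% and 4.63% of reads in KO livers and 7.18%, 8.23% and 6.17% in Control livers, without overlap. The large-subunit rRNA mt-Rnr2 had 487, 187 and 419 FPKM in KO livers against 811, 804 and 763 FPKM in Control livers. Its groups were far apart, with the lowest value again in KO 2, but it missed the threshold (log2 fold change -1.23, SE 0.34, adjusted p = 0.207). The small-subunit rRNA mt-Rnr1 had 440, 211 and 309 FPKM in KO livers and 786, 608 and 439 FPKM in Control livers, which overlapped by a single pair (log2 fold change -0.96, adjusted p = 0.267). Since rRNA was not the target of the poly-T capture, these levels count only what was captured. Among mRNAs, mt-Nd5 averaged 1678 ± 530 FPKM in KO livers and 3080 ± 482 FPKM in Control livers (adjusted p = 0.225), and mt-Nd4 and mt-Nd6 had log2 fold changes of -0.85 and -0.96. By mean log2(FPKM + 1), 13 of the 15 genes were lower in KO livers, and mt-Atp8, with 0 to 10 reads per library, was lower in mean FPKM only. Of the 15 genes, 10 had unadjusted p under 0.05 (66.7%, beside 13.9% of all genes tested), all 10 lower, and 0 passed the adjusted threshold. The 15 genes lie on the same small genome and share libraries, so they are not independent and their count is not a count of separate results. Their median log2 fold change was -0.80, and it stayed between -0.55 and -1.07 under every alternative run. Hepatocyte marker sums were also lower in KO livers, and their part in this difference was not tested.

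**Figure D4:**
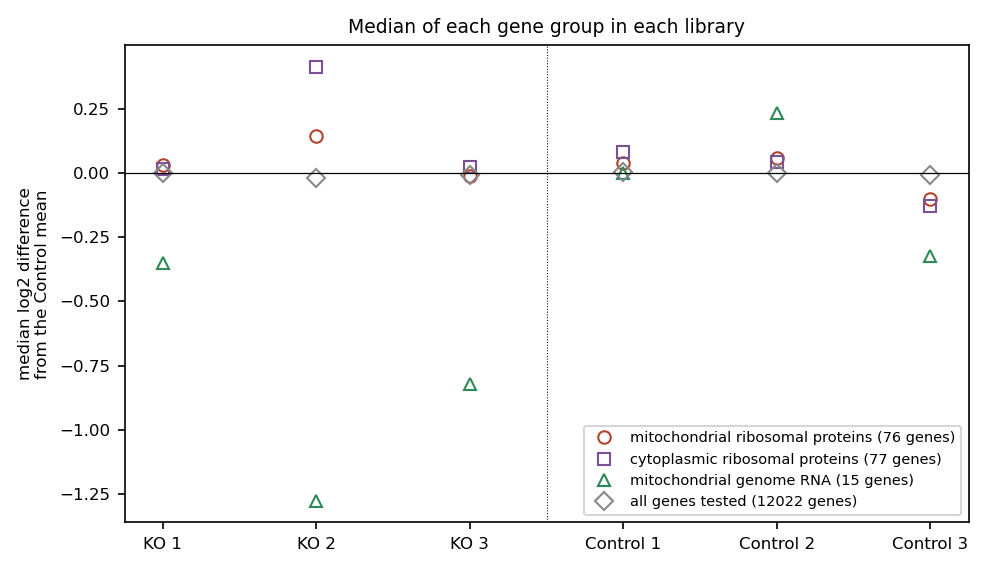
Median log2 difference from the Control mean in each library (KO 1 to 3 left, Control 1 to 3 right of the dotted line) for the 76 tested mitochondrial ribosomal protein genes, 77 cytoplasmic ribosomal protein genes, 15 genes of the mitochondrial genome and all 12022 genes tested. Both ribosomal protein families are highest in KO 2, where RNA of the mitochondrial genome is lowest, and the family of interest stays within 0.15 of 0 in every library.

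Genes that work with the mitoribosome were counted in lists. None of the lists held a gene past the adjusted threshold. The 5 structural subunits that carry other symbols had a median log2 fold change of 0.04, with 0 at unadjusted p under 0.05. Gadd45gip1, a large-subunit protein, averaged 12.9 ± 1.23 FPKM in KO livers and 11.4 ± 0.275 FPKM in Control livers (SD, n = 3 each; adjusted p = 0.516). The small-subunit proteins Chchd1, Ptcd3, Dap3 and Aurkaip1 had log2 fold changes of 0.13, -0.08, -0.07 and 0.04, all with overlapping groups. The 28 assembly factors had a median of 0.01, with 16 higher in mean log2(FPKM + 1) and 0 at unadjusted p under 0.05. Trub2 had a log2 fold change of 0.24 (adjusted p = 0.460). Malsu1, which keeps the subunits apart during assembly, had 0.16 (adjusted p = 0.470). Ngrn and the acyl carrier protein Ndufab1 had log2 fold changes of -0.16 and -0.20.

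Translation factors, tRNA charging and RNA processing had more genes lower than higher in mean in the KO livers on the deposited scale. Of the 13 tested translation factors, 10 were lower in mean, with a median log2 fold change of -0.06, which was 0.03 after scaling to total reads. The initiation factor Mtif3 averaged 2.79 ± 0.405 FPKM in KO livers and 3.5 ± 0.317 FPKM in Control livers (adjusted p = 0.374), and none of the 13 reached an unadjusted p under 0.05. The membrane insertase Oxa1l and the elongation factor Gfm1 had log2 fold changes of -0.23 and -0.16, and Taco1, an activator of translation of the mt-Co1 mRNA, 0.28. Of the 19 tested genes that charge tRNAs, 11 were lower in mean (median -0.05, and 0.07 after scaling to total reads), and 4 had unadjusted p under 0.05 (21.1%, beside 13.9% of all genes tested). Lars2, the leucyl enzyme, had 8.18, 9.62 and 8.09 FPKM in KO livers against 7.39, 5.50 and 4.92 FPKM in Control livers (log2 fold change 0.49, SE 0.15, adjusted p = 0.234). It was the only one of the 4 with the higher mean. The asparaginyl enzyme Nars2 and the amidotransferase subunit Gatb had log2 fold changes of -0.44 and -0.35. Of the 18 tested genes of mitochondrial RNA synthesis and processing, 13 were lower in mean (median -0.10, and 0.03 after scaling to total reads), and 3 had unadjusted p under 0.05 (16.7%, near the same background). For 6 of these 18 genes the groups did not overlap, 1 higher and 5 lower in KO livers (33.3%, beside 19.8% of all genes tested). The tRNA-trimming nuclease Elac2 had a log2 fold change of 0.24, and Fastkd1 and the RNase P subunit Hsd17b10 had -0.35 and -0.33, each without overlap between groups. The poly(A) polymerase Mtpap had -0.22, also without overlap.

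Of 10 transcription factors and coactivators known for genes of this kind, 1 had an unadjusted p under 0.05 (10%, beside 13.9% of all genes tested). Myc, which drives ribosome production, had 1.11, 2.06 and 1.77 FPKM in KO livers against 2.55, 5.26 and 6.49 FPKM in Control livers. The groups did not overlap, but Myc missed the threshold (log2 fold change -1.08, SE 0.28, adjusted p = 0.195). The coactivators Pprc1 and Ppargc1a and the GABP subunit Gabpb1 had log2 fold changes of -0.26, -0.21 and 0.09, with overlap in each. The median of the list was -0.05, and 0.08 after scaling to total reads.

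Several members lie head to head with another gene. In GENCODE M21, 22 of the 77 members (28.6%) had a protein-coding gene on the opposite strand starting within 1000 bases upstream, or overlapping the start by up to 300 bases, beside 8.64% of all 22028 protein-coding genes. Mrps12 starts 172 bases from Sars2, the mitochondrial seryl-tRNA synthetase. Sars2 averaged 2.78 ± 0.108 FPKM in KO livers and 2.36 ± 0.488 FPKM in Control livers (log2 fold change 0.18, beside 0.35 for Mrps12). Mrps18c starts 29 bases from the helicase gene Helq, which had a log2 fold change of 0.01 beside -0.34 for Mrps18c. Mrpl51 and Mrpl2 had 0.27 and 0.26, and their neighbours Ncapd2 and Klc4 both had 0.12. Mrps18b had -0.04, and its neighbour Ppp1r10, a regulator of protein phosphatase, had -0.64 with an unadjusted p above 0.05. Mrpl46 and Mrps11 also stand head to head and overlap, with 12.2% of the exon bases of Mrpl46 shared, and both had the higher mean in KO livers (log2 fold changes 0.38 and 0.18). No difference within a pair was tested.

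Promoters of these genes are known for sites of GABP, NRF1 and YY1, factors that tie nuclear genes to mitochondrial function. RefSeq windows of 300 bases (250 before and 50 after a transcript start, GRCm38.p6) were on hand for 68 of the 77 members, 74 windows in all, and for 17492 protein-coding genes with 21263 windows. A gene was counted once if any of its windows matched. The windows were searched on both strands for fixed letters, and matches of different motifs were counted whether or not they overlapped. CCGGAAG, the core bound by GABP and other Ets factors, was found for 26 members (38.2%), beside 12.9% of the protein-coding genes. An NRF1 site, read as GCGC, any base and then TGCGC, was found for 12 members (17.6%) beside 7.17%, and AAGATGG, the YY1 core, for 13 (19.1%) beside 7.18%. GGGCGG, for SP1, matched in 50% of members beside 49.2% of all genes. CCAAT, for NF-Y, matched in 39.7% of members beside 42.3%. The E-box CACGTG matched in 7.35% of members beside 8.91%, and the core promoter element TATAAA in 7.35% beside 14.8%. Counted per window, SP1 letters stood in 52.7% of member windows beside 46.2% of all protein-coding windows. For NF-Y and the E-box the direction turned, with 40.5% of member windows beside 38.2% and 9.46% beside 7.84%. For GABP the shares per window were 35.1% and 11.6%. GTGGGAA, the core bound by RBPJ, the DNA-binding partner of Notch, was found for 6 members (8.82%) beside 6.96%. Those 6 were Mrpl3, Mrpl39, Mrpl58, Mrps11, Mrps22 and Mrps30. A match is a string of letters and not a site shown to be bound.

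**Figure D5:**
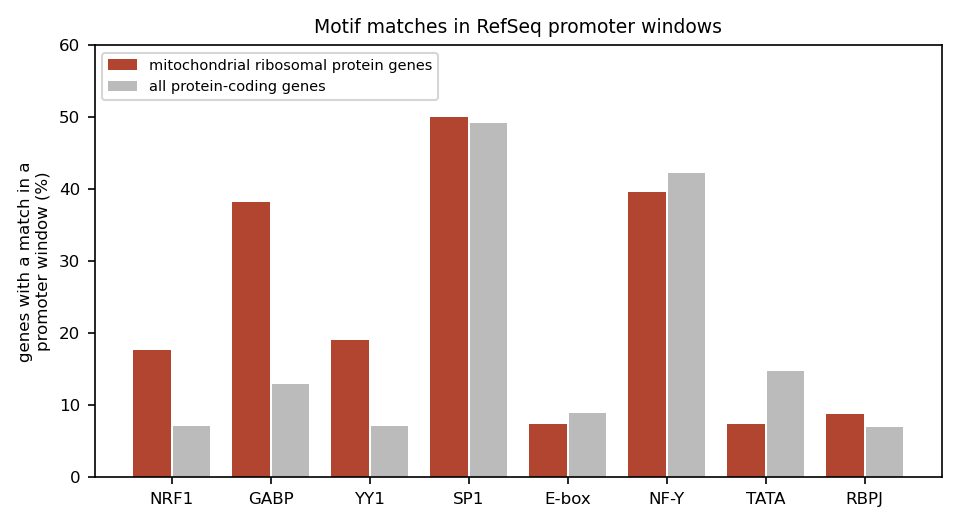
Percent of genes with at least 1 match to each motif, on either strand, in a RefSeq window from 250 bases before to 50 bases after a transcript start, for the 68 members with a window (red) and 17492 protein-coding genes (grey). The bars differ most for GABP, with 38.2% of members and 12.9% of all genes, and by less than 3 percentage points for SP1, NF-Y, the E-box and RBPJ, where the NF-Y and E-box order turns if windows are counted.

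The GABP letters lay mostly near the RefSeq start on which each window was built. Of 31 matches in member windows, 26 began within 60 bases of it, with a median first position of -17. Positions in the windows of other genes were not counted, so this nearness is not shown to be particular to the family. The 30-base stretches below are shown because they hold the GABP match in 5 of the members with the lowest p described above and in the remaining paralogs of Mrps18c. Each is from the RefSeq window on GRCm38.p6, 5′ to 3′ on the strand of the gene, with the match in capitals as CCGGAAG or its reverse complement.
Mrps12 (chr7:28741802-28741831, minus strand): aaggaggaaccCCGGAAGgggctggaggta
Mrpl51 (chr6:125192099-125192128, plus strand): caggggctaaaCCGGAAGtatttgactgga
Mrpl57 (chr14:57826232-57826261, plus strand): ccccagagagaCCGGAAGcagcgcgccgcc
Mrps26 (chr2:130563732-130563761, plus strand): ctccgcggccaCTTCCGGgccgggcgcagg
Mrps18c (chr5:100798592-100798621, plus strand): gggtcacgtgaCTTCCGGcccgggaagcgc
Mrps18a (chr17:46110967-46110996, plus strand): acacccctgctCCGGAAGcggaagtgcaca
Mrps18b (chr17:35916391-35916420, minus strand): tgtcccgagcatgcgcagtcgctCTTCCGG
The matches began at +2 in Mrps12, +5 in Mrpl57, -14 in Mrps26, -26 in Mrps18a, +44 in Mrps18b, -90 in Mrpl51 and -156 in Mrps18c, counted from +1 at the RefSeq start, with negative positions upstream of it. These starts differ from the gene starts of the deposited table and GENCODE M21 used for the head-to-head pairs. Counted from those gene starts, the same matches began at +1 in Mrps12, +10 in Mrpl57, +2 in Mrps26, -8 in Mrps18a, -8 in Mrps18b, +310 in Mrpl51 and -24 in Mrps18c. All 3 paralogs of the S18 family carry the letters, and their distances from the start depend on the annotation.

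A YY1 match and an NRF1 match are shown for a member without the GABP letters each. In Mrps11 the YY1 letters stood as their reverse complement, beginning at -106 from the RefSeq start and -94 from the gene start.
Mrps11 (chr7:78783014-78783043, plus strand): tacgggcgccgCCATCTTtctgtcttccca
For Mrpl12, the 150 bases from -174 to -25 lie outside annotated exons and hold an NRF1 match that begins at -81.
Mrpl12 (chr11:120484463-120484612, plus strand): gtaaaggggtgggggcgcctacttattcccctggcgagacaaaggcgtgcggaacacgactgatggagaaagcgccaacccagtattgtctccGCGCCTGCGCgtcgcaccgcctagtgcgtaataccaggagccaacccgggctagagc
The log2 fold change had a median of 0.12 over the 25 tested members with a GABP match and 0.02 over the 42 without. It was 0.03 over the 6 members with an RBPJ match and 0.05 over the 61 without. The differences between these medians were not tested.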

How the data were processed

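Liver RNA-seq of 3 KO and 3 Control mice was deposited by the authors as 1 table of FPKM per gene. Per the submitters' processing notes, HISAT2 2.0.5, featureCounts 1.5.0-p3 and GRCm38 were used, with no settings given, and how FPKM was computed is not stated. Multiplied by gene length and divided by a single constant for each library, 100% of the non-zero FPKM values came out as whole reads to within 0.1 read. The divisor equalled the median ratio of reads to their geometric mean, times a constant, which is a scaling between libraries. For a gene 1 kilobase long, 3 reads equal 0.150 to 0.201 FPKM.

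The 12022 of 54532 genes that averaged 0.5 FPKM or more were fitted on log2(FPKM + 1) with limma 3.58.1 in R 4.3.3 (lmFit, eBayes with trend), two-sided. P-values were adjusted over all of these genes (Benjamini-Hochberg) and called below 0.05. Adding 1 to FPKM understates changes of low genes. The fit was also run on simulated reads with a dispersion (spread between libraries) of 0.03 for every gene. No power for these livers is drawn from that run. Lists were described by counts and medians only. The members and lists were chosen with earlier results of these data known. Genes named with values were the 10 members with the smallest p in each direction, the 5 highest and 5 lowest by level, the S18 paralogs, subunits with other symbols, both mitochondrial rRNAs, Notch1, and up to 4 genes per related list with the smallest p. Divergent neighbours of named members, Mrpl53, and the genes sharing exons with members were named after their values were seen. Cytoplasmic ribosomal protein genes followed a symbol pattern, from which 19 genes that are no ribosomal proteins, such as kinases, or are pseudogene symbols were left out. Mean ± SD is over 3 livers. Counts of members and of genes in lists with the higher or lower mean are by the mean of log2(FPKM + 1). 1 further symbol of the Mrpl pattern is not reported here.

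Exon overlaps and principal transcripts came from GENCODE M21 (GRCm38), where 72 of 77 members had the coordinates of the table, and promoter windows from RefSeq. Deviations from the group means correlated at 0.31, 0.16 and 0.10 for same-numbered libraries and at -0.25 to 0.11 for others. Each same-numbered value was above 0.1, but the labels give no shared litter or day, so the numbers entered as a block only in an alternative fit. 16 alternatives were fitted: pseudocount, filters, scaling, eBayes settings, sample weights, voom on recovered reads, a replicate block and each library left out in turn. Leaving out members that share exons, and the principal transcript length, were added after seeing the data.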

Additional observations from a re-analysis of the deposited data

How the results depend on the processing

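0 members passed the adjusted threshold under all 16 alternatives, and none of the related lists gained a call, although the count over all genes ran from 0 to 58. Leaving out 1 library gave 3 to 5 members at unadjusted p under 0.05 (3 without Control 3), where 9.62% to 15.4% of all genes reached it. It gave 11 to 18 members without overlap, where the smaller groups separate more easily, and a family median of -0.02 to 0.09. Quantile normalization gave 8 members at unadjusted p under 0.05, where 13.9% of all genes reached it. Scaling to total reads gave 11, where 14.5% of all genes reached it. That scaling left 18 members not overlapping and gave a median of 0.18, but it moved the median of all genes from -0.01 to 0.10. For these alternatives no share of all genes without overlap is given here. Their counts without overlap therefore cannot be read against the 19.8% of the main fit. Without members that share exons, 2 had unadjusted p under 0.05 and 4 did not overlap. With the replicate number as a block, 6 members had unadjusted p under 0.05, where 16.1% of all genes had, and 0 members passed. The block changed no call of a named gene, and the median was 0.04.

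Of the values of named genes under the alternatives, 1038 kept their direction and side of the threshold and 30 turned direction, all far from the threshold. After scaling to total reads the log2 fold changes that turned were Mrps31 0.0094, Mrpl38 0.048, Mrpl1 0.035, Mrps36 0.041, Mrpl23 0.034, Mrpl13 0.070, Mrpl3 0.091, Mrpl19 0.062, Mrps18b 0.092, Ptcd3 0.035 and Dap3 0.053. Helq was -0.019 after quantile normalization and -0.0095 with array weights. When 1 library was left out, the ranges that crossed 0 were -0.21 to 0.037 for Mrps36, -0.21 to 0.017 for Mrpl1, -0.16 to 0.0026 for Dap3, -0.0069 to 0.27 for Mrpl14, -0.17 to 0.087 for Mrps18b, -0.050 to 0.12 for Mrps18a, -0.057 to 0.091 for Helq, -0.11 to 0.076 for Mrpl3, -0.23 to 0.012 for Mrps9, -0.032 to 0.23 for Chchd1, -0.059 to 0.095 for Mrpl33 and -5.9e-05 to 0.087 for Aurkaip1. The cause was not tested. By principal transcript length the median level was 23.5 in place of 13.0. The width of the intervals sets the limit, since those of 5 of the 76 members reached beyond 1.5-fold on the deposited scale.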

Other observations

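5 processed pseudogenes carry the stem of a member's symbol. Mrpl23-ps1 had 1.71 to 3.57 FPKM in KO livers and 1.76 to 1.84 FPKM in Control livers, and Mrpl48-ps had 1.66 to 2.10 FPKM in KO livers and 0.943 to 3.63 FPKM in Control livers. Mrps36-ps1 and Mrps36-ps2 held 1 to 6 reads per library, and Mrps36-ps3 was listed at 0 throughout. How reads were divided between these copies and the parent genes is not given in the sources used here.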
